A study of Mus musculus with 12 samples.

Results

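The growth hormone axis of the liver was examined here through 10 genes: the receptor gene Ghr, the kinase gene Jak2, the transcription factor genes Stat5a and Stat5b, the target genes Igf1, Igfals, Socs2 and Cish, and the repressor genes Bcl6 and Cux2. They were taken by their GENCODE M21 symbols from a table of 54232 Ensembl gene IDs, and each symbol belonged to a single ID. RNA sequencing had been performed on whole livers of 12 male C57BL6/J mice, with 1 library per mouse. The 5 pair-fed (PF) mice received an isocaloric liquid diet rich in fat for 8 weeks. The 7 alcohol-fed (AF) mice received ethanol raised to 27 g/kg/day over the same 8 weeks, and were given binges of 5 g/kg once a week, starting in week 2. The labels give an age of 8 weeks for all mice. This is the intragastric model of alcohol-associated steatohepatitis (ASH). The methods describe solid food rich in cholesterol and saturated fat beside the infused diet, and name this food or regular chow for the time before infusion. They do not spell out the solid food of the PF mice. Livers were taken 1 day after the last binge. The labels name no engineered allele, the sequenced groups hold no females, and the hours of tissue collection, from late morning to early afternoon, are not given per mouse. The comparison of AF with PF livers asks how RNA levels in the liver differed with ethanol feeding against the isocaloric diet.

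Growth hormone from the pituitary binds its receptor on hepatocytes, and the receptor-bound kinase JAK2 then phosphorylates STAT5A and STAT5B, which dimerise, enter the nucleus and bind DNA at palindromic GAS sites. Liver STAT5B drives the gene of insulin-like growth factor 1 (IGF1), the main circulating mediator of growth, and of feedback inhibitors of the SOCS family. In rodents the male pattern of growth hormone pulses, read through STAT5B, also keeps male-biased liver genes on. BCL6, higher in males, represses female-biased genes, and CUX2, higher in females, represses male-biased ones. STAT5 activity is a matter of phosphorylation, and only RNA levels were measured here.

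Libraries held 24129900 to 28594027 counts on genes in PF and 25099033 to 30578639 in AF mice. Levels are given as CPM, counts scaled to 1 common library size with edgeR's TMM factors, which ran from 0.832 to 0.901 in PF and from 0.880 (AF replicate 6) to 1.36 (AF replicate 1) in AF livers. The defining hepatocyte genes were abundant in all livers, with a summed level of 103000 to 145000 CPM over 9 markers in PF and 57900 to 108000 CPM in AF livers, and none was at 0. In bulk tissue, fewer cells of a type and less RNA per cell cannot be told apart.

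Of the 10 axis genes, 9 had enough counts to be tested. In edgeR's quasi-likelihood test with Benjamini-Hochberg adjustment over 14168 genes and a threshold of 0.05, 5 of the 9 were lower in AF livers (Ghr, Igfals, Igf1, Bcl6 and Stat5b), 0 were higher and 4 did not pass. At an unadjusted p under 0.05, 1, Stat5a, was higher. In the same test 39.8% of all genes passed, 22.0% higher and 17.8% lower. The median log2 fold change was -0.65 over the 9 axis genes and 0.04 over all genes. The plot of levels in each liver shows the 10 genes side by side.

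**Figure D1:**
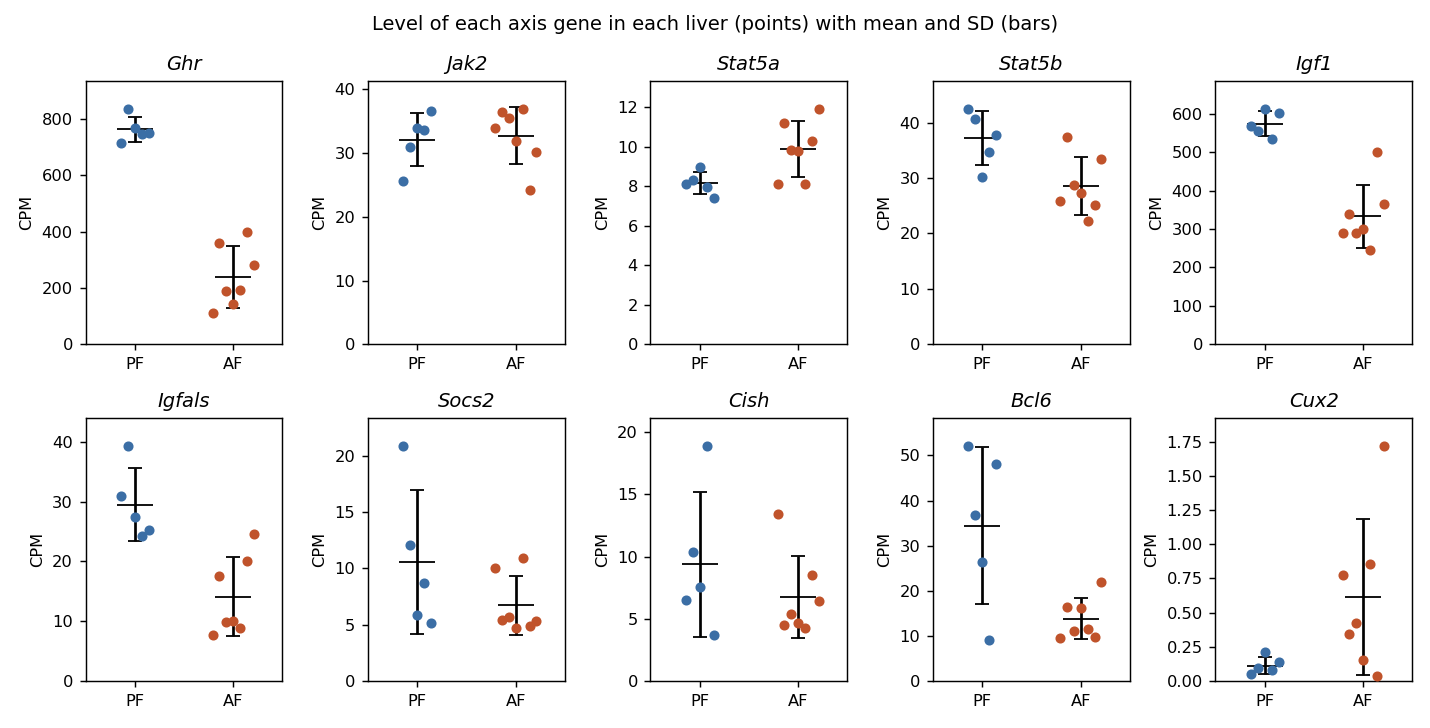
Each panel plots 1 gene of the growth hormone axis, with the level in CPM on the vertical axis from 0 and the 5 PF and 7 AF livers as points, and the horizontal and vertical black bars give the mean and SD. All AF livers sit below all PF livers for Ghr and Igf1, whereas the groups overlap in the other panels.

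The receptor gene fell the most. Ghr (ENSMUSG00000055737, chromosome 15, 3317760 to 3583492, minus strand) encodes the growth hormone receptor. In PF replicates 1 to 5 its level was 716, 835, 767, 747 and 750 CPM. In AF livers it ran from 110 CPM in AF replicate 1, over a median of 191, to 398 CPM in AF replicate 6. PF livers were close to each other and AF livers were spread, and the highest AF liver stayed far below the lowest PF liver. The mean went from 763 ± 44.4 to 239 ± 109 CPM (mean ± SD of 5 PF and 7 AF livers), which is 31.3% of the PF level. The log2 fold change was -1.67 (standard error 0.277, adjusted p = 0.000694 by edgeR), and a two-sided exact permutation test of log2 CPM gave p = 0.00253. All 7 AF livers below all PF livers was the pattern of 9.49% of all genes tested. AF replicate 1 also had the highest TMM factor of the AF livers and AF replicate 6 the lowest, and the part of this in their order was not tested. On library totals without these factors Ghr was at 603 to 694 CPM in PF and 150 to 370 CPM in AF livers, again without overlap.

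The kinase gene did not pass the test. Jak2 (ENSMUSG00000024789, chromosome 19, 29251828 to 29313080, plus strand) was at 25.6, 30.9, 34.0, 33.6 and 36.6 CPM in PF replicates 1 to 5. Its AF livers ran from 24.2 CPM in AF replicate 6, over a median of 33.9, to 36.9 CPM in AF replicate 5. The ranges of the groups covered each other almost fully. The log2 fold change was 0.03 (standard error 0.116, adjusted p = 0.874 by edgeR).

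The STAT5 genes lie head to head on chromosome 11, on opposite strands, with 8626 bases between the gene bodies. Stat5b (ENSMUSG00000020919, 100780731 to 100850724, minus strand) encodes the form that carries most of the growth hormone signal in liver. Its level in PF replicates 1 to 5 was 42.4, 40.7, 30.2, 34.7 and 37.7 CPM. In AF livers it ran from 22.3 CPM in AF replicate 5, over a median of 27.2, to 37.4 CPM in AF replicate 2. AF livers were lower as a group, 5 of 7 below every PF liver, with AF replicates 2 and 7 inside the PF range. Stat5b fell from 37.1 ± 4.87 to 28.6 ± 5.20 CPM (mean ± SD of 5 PF and 7 AF livers), for a log2 fold change of -0.38 with a standard error of 0.129 (adjusted p = 0.0324 by edgeR). This call was close to the threshold: it was lost without PF replicate 1, 2 or 5 and without AF replicate 1, 3, 4 or 5 (adjusted p by edgeR from 0.0527 to 0.0783), with upper-quartile scaling (adjusted p = 0.0663) and on library totals (log2 fold change -0.02, adjusted p = 0.907). On the scale of hepatocyte markers the sign turned, with a log2 fold change of 0.30 (adjusted p = 0.120).

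Stat5a (ENSMUSG00000004043, 100859351 to 100885169, plus strand) was at 8.12, 8.33, 8.96, 7.98 and 7.42 CPM in PF replicates 1 to 5. AF livers ran from 8.10 CPM in AF replicate 5, over a median of 9.84, to 11.9 CPM in AF replicate 7. Here 5 AF livers were above every PF liver, and AF replicates 1 and 5 lay within the PF range. The means ± SD were 8.16 ± 0.559 CPM over 5 PF livers and 9.89 ± 1.43 CPM over 7 AF livers, and the log2 fold change of 0.28 did not pass (standard error 0.115, adjusted p = 0.0717 by edgeR). The fold change passed without AF replicate 1 or without AF replicate 5 (both 0.32), with upper-quartile scaling (0.33, adjusted p = 0.0366), on library totals (0.62, adjusted p = 0.00164) and with sample weights in limma-voom (0.28, adjusted p = 0.0257), and a correction for GC content and length of the genes gave -0.09 (adjusted p = 0.626). Stat5a shares 72 exonic bases with Stat3 on the opposite strand, which held 48677 counts over the 12 libraries, and the strand setting of the counting is not given in the sources used here. Some of the Stat5a counts are therefore uncertain.

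Since a ratio of 2 well-counted genes within a liver hardly depends on how libraries are scaled, the STAT5 genes were also set against each other, with 0.1 CPM added to each level as in all ratios here. The log2 ratio of Stat5b to Stat5a was 2.37, 2.28, 1.74, 2.11 and 2.33 in PF replicates 1 to 5. In AF livers it ran from 1.28 in AF replicate 6, over a median of 1.49, to 1.73 in AF replicate 2. The groups did not overlap, although the highest AF liver and the lowest PF liver, PF replicate 3, differed only in the second decimal. The mean difference, AF minus PF, was -0.65, so the balance of the STAT5 transcripts lay closer to Stat5a in AF livers. These ratios were chosen with the levels of the genes known and are given without a test. How often ratios of other gene pairs keep the groups apart was not counted, so no share over all genes stands beside them.

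Among the target genes, both secreted members of the circulating IGF1 complex fell and both feedback inhibitors did not pass the test. Igf1 (ENSMUSG00000020053, chromosome 10, 87858265 to 87937042, plus strand), the gene of the growth factor itself, was at 569, 555, 612, 535 and 602 CPM in PF replicates 1 to 5. AF livers ran from 245 CPM in AF replicate 5, over a median of 300, to 500 CPM in AF replicate 6. AF replicate 6 came close to the PF range and the other AF livers stayed well under it, with no overlap of the groups. Igf1 fell from 575 ± 32.1 to 333 ± 83.1 CPM (mean ± SD of 5 PF and 7 AF livers), or to 57.9% of the PF level. The log2 fold change was -0.79 (standard error 0.156, adjusted p = 0.00201 by edgeR, exact two-sided permutation p = 0.00379). On library totals the groups stayed apart, at 462 to 551 CPM in PF and 280 to 440 CPM in AF livers. Relative to hepatocyte markers the call was lost, with a log2 fold change of -0.17 (adjusted p = 0.261 by edgeR).

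Igfals (ENSMUSG00000046070, chromosome 17, 24865997 to 24882010, plus strand) encodes the acid-labile subunit, which holds IGF1 and its binding protein together in blood. Its level was 31, 39.3, 27.4, 24.3 and 25.2 CPM in PF replicates 1 to 5. AF livers ran from 7.65 CPM in AF replicate 1, over a median of 10, to 24.6 CPM in AF replicate 7. Except for AF replicate 7, which was just above the lowest PF liver, all AF livers were below the PF range. Igfals fell from 29.4 ± 6.08 to 14.1 ± 6.64 CPM (mean ± SD of 5 PF and 7 AF livers), or to 47.8% of the PF level, at a log2 fold change of -1.07 with a standard error of 0.280 (adjusted p = 0.00958 by edgeR). Ghr and Igfals kept their direction and their place below the threshold in each of the 25 alternatives in which they were recomputed.

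Promoter windows of the axis genes were searched for the GAS consensus TTCNNNGAA, the form of site that STAT5 dimers prefer. The windows are those of RefSeq on GRCm38.p6, from 250 bases before to 50 bases after each annotated start, and 9 of the 10 genes had at least 1 window (16 windows in all, none for Socs2). The consensus is its own reverse complement, so both strands give the same matches. It occurred in 3 of the 9 genes, Igfals, Cish and Bcl6, and in 8.30% of 32851 windows of all genes, or in 9.55% of 27025 genes. A match describes letters in the window and not a bound site. The windows with matches are shown because they belong to genes of different behaviour in AF livers, 2 that fell and 1 that did not pass. Capitals mark the matches. For Igfals, the windows of its first and second annotated start lie at chr17:24877594-24877893 and chr17:24877981-24878280 on the plus strand, each with 1 match, which begins 236 and 58 bases before the start.
Igfals window 1: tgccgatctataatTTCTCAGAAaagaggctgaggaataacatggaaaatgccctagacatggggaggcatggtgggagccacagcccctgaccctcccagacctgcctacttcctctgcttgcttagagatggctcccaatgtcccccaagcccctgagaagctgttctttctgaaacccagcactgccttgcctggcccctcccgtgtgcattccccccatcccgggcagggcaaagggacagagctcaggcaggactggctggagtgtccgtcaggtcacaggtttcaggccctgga
Igfals window 2: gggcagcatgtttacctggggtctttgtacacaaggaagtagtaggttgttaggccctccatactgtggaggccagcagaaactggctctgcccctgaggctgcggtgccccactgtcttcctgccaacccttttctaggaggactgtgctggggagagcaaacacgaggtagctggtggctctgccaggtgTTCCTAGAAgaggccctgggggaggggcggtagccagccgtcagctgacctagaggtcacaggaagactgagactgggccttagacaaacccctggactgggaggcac

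Setting the target genes against each other and against the receptor showed where the falls differed. The log2 ratio of Igf1 to Ghr was -0.33, -0.59, -0.33, -0.48 and -0.32 in PF replicates 1 to 5. In AF livers it ran from -0.07 in AF replicate 2, over a median of 0.36, to 1.40 in AF replicate 1. All AF livers were above all PF livers, since Ghr was reduced more than Igf1, and the mean difference was 0.99. All AF livers were above all PF livers in the level of 8.20% of all genes tested, but this is a share of single genes and not of ratios. For Igfals to Igf1 the mean log2 ratio was -4.30 in PF and -4.65 in AF livers. These ranges overlapped, with AF replicate 7 at -3.88 and AF replicate 1 at -5.23.

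**Figure D2:**
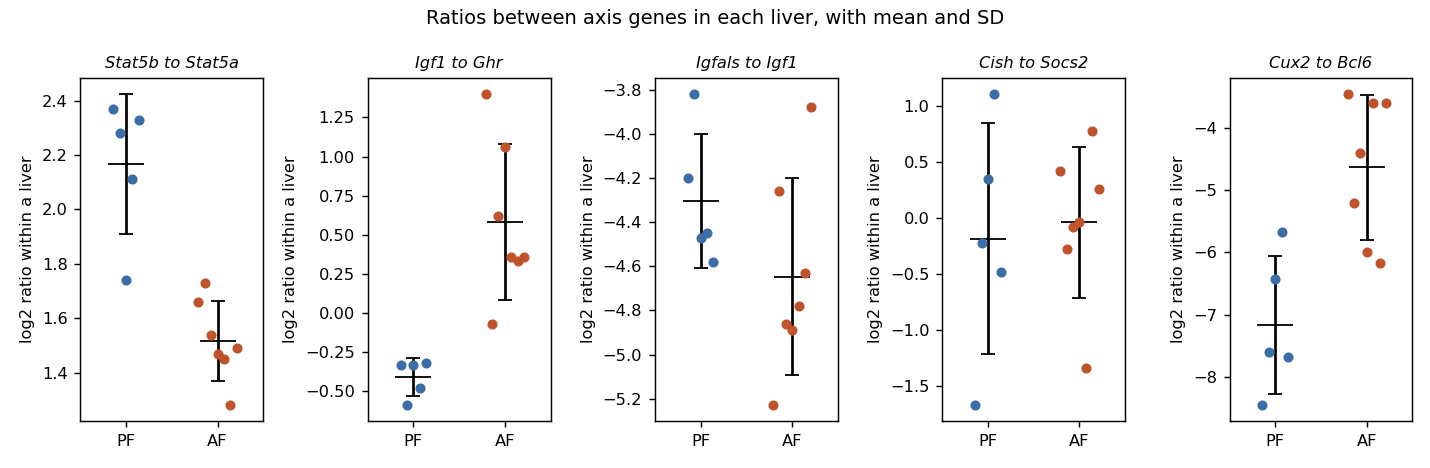
The log2 ratio of 2 genes within each liver is plotted on the vertical axis for 5 pairs of axis genes, with PF and AF livers as points and black bars for the mean and SD. Stat5b to Stat5a is lower and Igf1 to Ghr is higher in every AF liver than in any PF liver, and the groups overlap for the other pairs.

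The feedback genes varied within PF mice more than the genes above. Socs2 (ENSMUSG00000020027, chromosome 10, 95385362 to 95417180, minus strand) encodes a SOCS protein that limits growth hormone receptor signalling. It was at 20.9, 12.1, 5.88, 8.69 and 5.16 CPM in PF replicates 1 to 5. AF livers ran from 4.72 CPM in AF replicate 4, over a median of 5.46, to 10.9 CPM in AF replicate 5. PF replicates 1 and 2 were above all AF livers, and the other PF livers lay among them. The log2 fold change was -0.65 (standard error 0.341, adjusted p = 0.145 by edgeR). Without PF replicate 1 it was -0.25, and relative to hepatocyte markers it was 0.16 (adjusted p = 0.718).

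Cish (ENSMUSG00000032578, chromosome 9, 107296026 to 107302784, plus strand) encodes CIS, a quickly induced target and inhibitor of STAT5. In PF replicates 1 to 5 it was at 6.50, 10.4, 7.54, 18.9 and 3.66 CPM. AF livers ran from 4.22 CPM in AF replicate 5, over a median of 5.35, to 13.4 CPM in AF replicate 1. PF replicate 4 and AF replicate 1 were the highest livers, and the groups overlapped over most of their range. The log2 fold change was -0.48 (standard error 0.379, adjusted p = 0.324 by edgeR), and without PF replicate 4 it was -0.07. Relative to hepatocyte markers it was 0.23 (adjusted p = 0.619). The mean log2 ratio of Cish to Socs2 was -0.18 in PF and -0.04 in AF livers, with wide overlap. Only 0.457% of all windows held 2 or more GAS matches, and the Cish window at chr9:107296409-107296708 on the plus strand was one of these. Its matches begin at bases 1 and 12 after the annotated start and are separated by 2 bases.
Cish window: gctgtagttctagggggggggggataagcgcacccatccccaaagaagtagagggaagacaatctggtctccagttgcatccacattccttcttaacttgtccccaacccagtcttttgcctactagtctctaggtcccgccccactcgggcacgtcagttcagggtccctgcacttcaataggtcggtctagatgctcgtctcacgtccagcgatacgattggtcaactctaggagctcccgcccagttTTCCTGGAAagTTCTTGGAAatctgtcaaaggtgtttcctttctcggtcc

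Of the repressor genes, Bcl6 fell, and Cux2 was scarce in all livers. Bcl6 (ENSMUSG00000022508, chromosome 16, 23965052 to 23988852, minus strand) encodes a zinc finger repressor that binds many of the same DNA sites as STAT5 and is itself known to be repressed by growth hormone. Its level was 52.1, 36.7, 26.4, 8.97 and 48.1 CPM in PF replicates 1 to 5. AF livers ran from 9.54 CPM in AF replicate 1, over a median of 11.6, to 21.9 CPM in AF replicate 7. The lowest liver of all was PF replicate 4, and the other PF livers were above every AF liver. Bcl6 fell from 34.5 ± 17.4 to 13.8 ± 4.58 CPM (mean ± SD of 5 PF and 7 AF livers), or to 40.0% of the PF level, at a log2 fold change of -1.32 with a standard error of 0.344 (adjusted p = 0.00913 by edgeR, exact two-sided permutation p = 0.0341). The call was lost relative to hepatocyte markers (log2 fold change -0.64, adjusted p = 0.0902 by edgeR) and with sample weights in limma-voom (-0.88, adjusted p = 0.127). RefSeq places a start of Bcl6 with a window at chr16:23988803-23989102, which holds 1 GAS match 118 bases before the start, and a further one with a window at chr16:23981234-23981533. The latter holds 3 matches, beginning 168, 122 and 88 bases before the start, a number reached by 0.0335% of all windows. Both are given on the minus strand.
Bcl6 window 1: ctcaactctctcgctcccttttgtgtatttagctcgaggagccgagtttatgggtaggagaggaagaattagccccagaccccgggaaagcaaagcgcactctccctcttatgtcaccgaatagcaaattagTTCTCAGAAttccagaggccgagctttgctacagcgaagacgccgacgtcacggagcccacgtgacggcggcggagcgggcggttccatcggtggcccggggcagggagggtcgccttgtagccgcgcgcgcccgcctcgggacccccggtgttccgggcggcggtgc
Bcl6 window 2: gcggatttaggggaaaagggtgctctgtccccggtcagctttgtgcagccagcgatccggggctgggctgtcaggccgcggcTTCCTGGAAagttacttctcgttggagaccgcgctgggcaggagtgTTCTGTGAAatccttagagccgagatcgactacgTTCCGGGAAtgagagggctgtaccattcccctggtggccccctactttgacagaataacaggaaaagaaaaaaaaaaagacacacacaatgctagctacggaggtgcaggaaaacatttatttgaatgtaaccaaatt

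Cish and Bcl6, of which the first is known to be induced and the second to be repressed by growth hormone, stood at opposite ends of their ranges in certain livers but not in others. PF replicate 4 had the highest Cish and the lowest Bcl6 of the PF livers, at 18.9 and 8.97 CPM. AF replicate 1 had the highest Cish and the lowest Bcl6 of the AF livers, at 13.4 and 9.54 CPM. In the other direction, PF replicate 5 had the lowest Cish of all livers and the second highest Bcl6. AF replicate 5, with the lowest Cish of the AF livers, had a Bcl6 level at their median, 11.6 CPM. AF replicate 7 had the highest Bcl6 of the AF livers and, at 6.44 CPM, a Cish level above their median. This was noticed after the values had been seen and is a description of single livers.

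**Figure D3:**
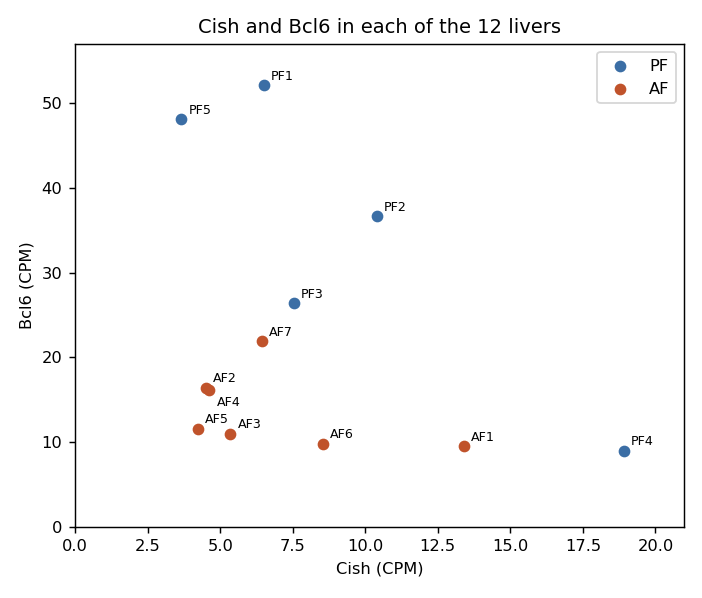
Each point is 1 of the 12 livers, with the level of Cish in CPM on the horizontal axis and that of Bcl6 in CPM on the vertical axis, both from 0. PF replicate 4 and AF replicate 1 lie at the lower right, whereas the other PF livers lie above all AF livers in Bcl6.

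Cux2 (ENSMUSG00000042589, chromosome 5, 121856366 to 122050102, minus strand) encodes a homeobox repressor that is known as strongly female-biased in rodent liver. It was scarce in these male livers and was left out of the main test by the filter on low counts. PF replicates 1 to 5 held 1, 2, 5, 2 and 3 counts. AF replicates 1 to 7 held 30, 9, 14, 5, 30, 1 and 49 counts. AF replicates 1, 2, 3, 5 and 7 were above every PF liver in CPM, while AF replicate 6 was below all of them, and 4 PF livers and 1 AF liver were at or under 3 counts, the limit that a count of 0 allows at 95% confidence. The pooled level was 5.49-fold higher in AF livers, with an exact 95% Clopper-Pearson interval of 3.11 to 10.6 that covers counting error only. The mean level ± SD was 0.113 ± 0.0619 CPM over the PF livers and 0.617 ± 0.572 CPM over the AF livers. The difference in mean log2(CPM + 0.1) was 1.38 (exact two-sided permutation p = 0.0429), and this p rose above 0.05 without any 1 of PF replicates 1, 2, 4 and 5 or AF replicates 1, 2, 3, 5 and 7 (differences of 1.08 to 1.43). When every gene with at least 1 count was tested, the edgeR log2 fold change of Cux2 was 2.41 (standard error 0.722, adjusted p = 0.0261). The log2 ratio of Cux2 to Bcl6 had a mean of -7.16 in PF and -4.63 in AF livers, with 5 AF livers above all PF livers. As Cux2 lies near the added 0.1 CPM, this ratio depends on it: without it, an alternative added after the data were seen, the means were -8.20 and -5.15 and 6 AF livers were above all PF livers.

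Levels of different genes were set in order per kilobase of exon. In PF livers Ghr came first at 84.3 ± 4.90 CPM per kb (SD, n = 5), followed by Igf1 at 58.0 and Igfals at 9.29, each apart from its next neighbour in all livers. Stat5b at 6.71, Jak2 at 6.39 and Bcl6 at 5.14 CPM per kb could not be told from their neighbours, nor could Cish, Stat5a and Socs2 at 1.46, 1.14 and 1.11. Cux2 was last at 0.0112 CPM per kb. In AF livers the order opened with Igf1 at 33.6 and Ghr at 26.4 CPM per kb, whose ranges overlapped and were apart from all others. Jak2 at 6.51, Stat5b at 5.16 and Igfals at 4.45 followed, with overlap between neighbours down to Socs2 at 0.704, and Cux2 stayed last at 0.0612. A receptor transcript that had been the most abundant of the axis in each PF liver was thus no longer apart from Igf1 in AF livers.

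No single AF liver was the extreme for the whole axis. AF replicate 7 was the highest AF liver for 4 of the 10 genes and AF replicate 5 the lowest for 4. Of the 5 genes that fell, AF replicate 7 lay below all PF livers in 2, AF replicate 2 in 3 and each of the others in 4. For Bcl6 no AF liver did, as PF replicate 4 was the lowest liver, so 4 was the most possible. These genes were picked as lower, so the counts are a description.

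The scaling of the libraries set the size of each change, and it is shown in the plot of fold changes under 3 scalings. Compared to TMM, library totals moved the median of all genes up by 0.36 on the log2 scale, and scaling to the hepatocyte markers moved it up by 0.69. Relative to the median of all genes, Ghr was at -1.71, -1.79 and -1.84 under TMM, library totals and hepatocyte markers, Igf1 at -0.83, -0.86 and -0.89, and Bcl6 at -1.36, -1.37 and -1.37. In absolute terms, Ghr (-1.11, adjusted p = 0.000355 by edgeR) and Igfals (-0.49, adjusted p = 0.0324 by edgeR) were the 2 axis genes lower per hepatocyte marker RNA, where 3.30% of all genes were lower and 65.9% higher. Jak2 (0.74, adjusted p = 0.0145 by edgeR) and Stat5a (0.93, adjusted p = 0.000954 by edgeR) were higher on that scale. Of the 9 hepatocyte markers, 2 were lower and 0 higher in AF livers under TMM, so this scale carries their own change.

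**Figure D4:**
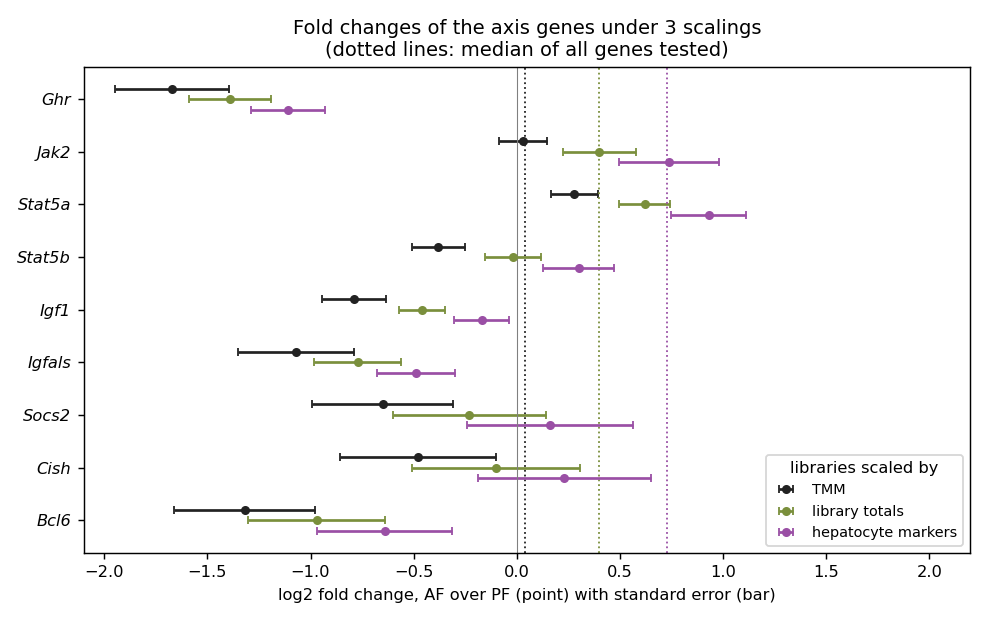
Points give the log2 fold change of AF over PF livers on the horizontal axis for the 9 tested axis genes, bars its standard error, and colours the scaling of the libraries (TMM, library totals, hepatocyte markers), with dotted lines at the median of all genes tested under each. Each gene moves to the right from TMM to hepatocyte markers, and Ghr, Igf1, Igfals and Bcl6 stay to the left of 0 under all 3.

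Markers of other cells differed between the groups as well. Kupffer cell and macrophage markers summed to 987 to 1470 CPM in PF and 1710 to 4620 CPM in AF livers, and 7 of 10 were higher. Stellate cell and fibroblast markers summed to 195 to 495 CPM in PF and 420 to 1070 CPM in AF livers, and 7 of 9 were higher. Of 5 bile duct markers tested 4 were higher, with sums of 49.6 to 244 CPM in PF and 70.4 to 1090 CPM in AF livers. Among these, Krt7 and Krt19 reached the filter on low counts through AF livers only. This tilts the tested markers towards higher values, so the count is a description. Fewer genes were called for sinusoidal endothelium (1 of 6 higher, 123 to 263 CPM in PF and 162 to 276 CPM in AF livers) and red blood cells (1 of 5 lower, 130 to 182 and 30 to 181 CPM). The lower red blood cell gene was Alas2, at a mean of 124 CPM in PF and 38.1 CPM in AF livers. The 4 not called were globin genes, at log2 fold changes of 0.81 to 1.02. T and NK cell markers (1 of 7 lower, 8.24 to 14.6 and 3.87 to 7.16 CPM) and B cell markers (2 of 6 lower, 24.9 to 170 and 9.71 to 39.8 CPM) were scarce. Of 7 neutrophil markers 0 passed edgeR's threshold in either direction, at sums of 53.7 to 783 and 45.7 to 178 CPM, and 2 (S100a8 and S100a9) were lower at an unadjusted p under 0.05. None of these markers was at 0 in all livers. Their part in the results of the axis genes was not tested.

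Around IGF1, several of its binding partners rose. In a list of 15 genes of binding proteins, receptors, IGF2 and binding protein proteases, 10 were tested, of which 5 were higher and 1 was lower, with a median log2 fold change of 0.76. This share of 60% stands beside the 39.8% of all genes. Igfbp3, the main carrier of IGF1 in blood, rose from 16.9 ± 4.75 to 35.6 ± 8.30 CPM (mean ± SD of 5 PF and 7 AF livers), for a log2 fold change of 1.08 with a standard error of 0.197 (adjusted p = 0.00127 by edgeR), with all AF livers above all PF livers. Igfals, its partner in the complex, fell in the same livers. Igfbp2 (0.80, adjusted p = 0.0372 by edgeR), Igfbp7 (1.04, adjusted p = 0.00468 by edgeR), the serine protease gene Htra1 (2.33, adjusted p = 0.00148 by edgeR) and the clearance receptor gene Igf2r (0.57, adjusted p = 0.00650 by edgeR) were higher too. Igfbp1, which hepatocytes make in fasting and under stress, ran from 77.4 to 261 CPM in PF and from 51.9 to 851 CPM in AF livers. Its log2 fold change of 0.15 did not pass (adjusted p = 0.874 by edgeR) and was -0.85 without AF replicate 1. Igfbp4, at a mean of 974 CPM in PF and 774 CPM in AF livers, did not pass in the main test (-0.33, adjusted p = 0.166 by edgeR). Neither did Igfbp5 (1.37, adjusted p = 0.0899 by edgeR). Igf1r, the IGF1 receptor gene, had a log2 fold change of 0.72 (adjusted p = 0.0706 by edgeR), and passed without AF replicate 6 (0.86), on library totals (1.15), on the hepatocyte scale (1.51), with limma-voom sample weights (0.76) and with the replicate block (0.95). The replicate block fits a term per replicate number. AF replicates 6 and 7 share theirs with no PF liver, so they add nothing to its AF estimate. Insr, the insulin receptor gene, was lower (-0.50, adjusted p = 0.00298 by edgeR), a call lost on library totals (-0.15). The call of Igfbp2 was lost without PF replicate 3, 4 or 5, without AF replicate 1, 2, 6 or 7 (adjusted p up to 0.0926) and with the GC and length offset (0.50).

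Other receptors known to act through STAT5 split by gene. Of 14, 12 were tested, 6 were higher and 2 lower, beside 22.0% higher and 17.8% lower over all genes. Epor, Il2ra, Il7r and Il3ra reached the filter on low counts through AF livers only, which tilts the tested genes towards higher values, so these counts too are a description. The 8 calls became 4 without PF replicate 3 and 5 without PF replicate 4, PF replicate 5 or AF replicate 3. Lepr, the leptin receptor gene, rose from 5.55 ± 2.32 to 66.5 ± 17.1 CPM (mean ± SD of 5 PF and 7 AF livers), a log2 fold change of 3.58 (adjusted p = 3.85e-06 by edgeR). Egfr, an abundant hepatocyte receptor gene, fell from 1280 ± 326 to 269 ± 228 CPM (mean ± SD of 5 PF and 7 AF livers), a log2 fold change of -2.25 (adjusted p = 0.00274 by edgeR), and Erbb4 of the same family was lower as well (-1.01, adjusted p = 0.0467 by edgeR). Erbb4 lost its call without any 1 of PF replicates 2 to 5 and AF replicates 2, 3, 4, 6 and 7 (adjusted p up to 0.129), and with all livers kept under upper-quartile scaling (adjusted p = 0.0569), on library totals (-0.61), on the hepatocyte scale (-0.23), with every gene of at least 1 count (adjusted p = 0.0607) and with thinning (adjusted p = 0.0532). The replicate block, which sets aside AF replicates 6 and 7, lost it as well (-0.93). The blood cell receptor genes Il7r (2.21, adjusted p = 0.0237 by edgeR) and Epor (1.18, adjusted p = 0.0283 by edgeR) were higher, beside the macrophage markers given above. Their calls too leaned on single livers, Il7r on PF replicates 1, 2 and 3 and Epor on PF replicates 3, 4 and 5 and AF replicate 3 (adjusted p up to 0.0726 without them), and limma-voom called neither (1.91 and 1.01). Epor also lost its call with the GC and length offset (0.81, adjusted p = 0.0858 by edgeR) and with every gene of at least 1 count (adjusted p = 0.052 by edgeR). Prlr, the prolactin receptor gene, had a log2 fold change of -0.36 (adjusted p = 0.431 by edgeR), which was -0.71 and past the threshold without AF replicate 7. The replicate block, which sets aside AF replicates 6 and 7, gave Prlr -0.76 (adjusted p = 0.0303 by edgeR) and is not independent of that fit.

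Downstream of the receptors, none of the 8 other JAK and STAT genes passed edgeR's threshold (0 higher, 0 lower, median log2 fold change 0.01). At an unadjusted p under 0.05, 1 was higher (Jak1) and 1 was lower (Stat3). DESeq2 called 1 and the hepatocyte scaling 5. Stat3 was closest, with a log2 fold change of -0.55 (adjusted p = 0.0506 by edgeR), and it was lower and past the threshold without AF replicate 6 (-0.75) and with RLE scaling (adjusted p = 0.0471), DESeq2 (0.0378), limma-voom (0.0379), its sample weights (0.00265), thinning (0.0444), the replicate block (0.000802) and the GC and length offset (0.0367). The replicate block, too, sets aside AF replicate 6. On the scale of hepatocyte markers Stat3 was at 0.07. Among 16 tested genes known to limit growth hormone receptor signalling, 3 were higher and 1 was lower, or 25.0% against 39.8% of all genes, with a median of 0.24. These 4 calls became 2 without PF replicate 2 or 5, and 7 without AF replicate 6. The higher ones were Socs5 (0.72, adjusted p = 0.0134 by edgeR) and the phosphatase genes Ptpn6 (0.45, adjusted p = 0.0479 by edgeR) and Ptpn1 (0.38, adjusted p = 0.0218 by edgeR), and the lower one was Socs4 (-0.47, adjusted p = 0.00365 by edgeR). Socs4 was at -0.10 on library totals and was not called there. The call of Ptpn6 held in 11 of 25 alternatives. It was lost with all livers kept under RLE (adjusted p = 0.0601), DESeq2 (adjusted p = 0.0539), limma-voom (adjusted p = 0.0733) and every gene of at least 1 count (adjusted p = 0.0548). The replicate block, which sets aside AF replicates 6 and 7, lost it as well (adjusted p = 0.0617 by edgeR). Ptpn6 also lost it without any 1 PF replicate or without AF replicate 2, 3 or 4, and Ptpn1 without PF replicate 2 or 5, and with the GC and length offset they were at 0.19 and 0.08. Socs3, the inhibitor best known for cytokine signals, had a log2 fold change of -0.73 (adjusted p = 0.278 by edgeR), which was -1.23 and past the threshold without AF replicate 6. The replicate block, which sets aside AF replicates 6 and 7, gave Socs3 -1.3 (adjusted p = 0.0329 by edgeR) and is not independent of that fit.

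Among 16 transcription factor genes known to act with STAT5 in liver or in sex-biased expression, 4 were lower and 1 was higher, or 31.2% against 39.8% of all genes, with a median of -0.32. Without AF replicate 6 there were 8 calls in place of 5. Onecut1, the gene of HNF6, fell from 7.20 ± 2.38 to 2.35 ± 0.878 CPM (mean ± SD of 5 PF and 7 AF livers), a log2 fold change of -1.62 (adjusted p = 0.000676 by edgeR). Onecut2 (-0.66, adjusted p = 0.00675 by edgeR), the oestrogen receptor gene Esr1 (-0.64, adjusted p = 0.00477 by edgeR) and the glucocorticoid receptor gene Nr3c1 (-0.59, adjusted p = 0.000312 by edgeR) were lower too. On library totals these 3 genes were at -0.30, -0.28 and -0.24, and on the scale of hepatocyte markers at 0.05, 0.06 and 0.08, without a call. The higher gene was Trim24 (0.79, adjusted p = 0.000746 by edgeR).

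Many sex-biased genes known to depend on STAT5B changed. These lists were chosen with the largest changes of these data known, so neither their direction nor their size is independent evidence. Of 19 male-biased genes 17 were lower and 0 higher, beside 17.8% lower and 22.0% higher over all genes, with a median log2 fold change of -3.11. All 19 were tested, 6 of them through PF livers only, the group where they were high. This count, too, is a description, and no share is given. Of 26 female-biased genes 8 fell short of the filter on low counts and were not tested, 13 were higher and 1, Hamp2, was lower (-1.95, adjusted p = 0.0462 by edgeR), beside 22.0% higher and 17.8% lower over all genes. Another 8 of the 26 (Cyp2a4, Cyp2b9, Cyp2b13, Cyp3a44, Cyp2c40, Sult2a2, Hao2 and Acot3) reached the filter through AF livers only, which tilts the tested genes towards higher values. These counts are therefore a description and no share is given. The median drawn for this list in the plot of the lists carries the same tilt. The 14 calls of this list became 8 with limma-voom. Hamp2 kept its call only without AF replicate 6 or 7 when single livers were left out, at -2.92 without the latter. With all livers kept, Hamp2 lost it under upper-quartile scaling (adjusted p = 0.0529 by edgeR) and on library totals (-1.67). The same held on the hepatocyte scale (-1.4) and with the GC and length offset (-1.72). Among the male-biased genes, Serpina1e fell from 8810 ± 3260 to 155 ± 158 CPM (mean ± SD of 5 PF and 7 AF livers; adjusted p = 0.000140 by edgeR). Moxd1 ran from 0.778 to 282 CPM in PF livers and was at 0.476 ± 0.777 CPM (SD, n = 7) in AF livers (adjusted p = 0.000876 by edgeR), and limma-voom did not call it (adjusted p = 0.0936). The log2 fold change of Moxd1, -7.79, moved to -6.82 without PF replicate 1, -8.44 without AF replicate 2 and -8.70 without AF replicate 6. Hsd3b5 ran from 45.8 to 186 CPM in PF livers and from 0 to 0.149 CPM in AF livers. Slco1a1 ran from 126 to 557 CPM in PF livers and from 0 to 0.670 CPM in AF livers. Leaving out AF replicate 6 moved the log2 fold change from -11.60 to -12.47 for Hsd3b5 and from -11.13 to -12.11 for Slco1a1. Among the female-biased genes, Cyp2b9 rose from 8.10 ± 7.32 to 506 ± 300 CPM (mean ± SD of 5 PF and 7 AF livers), a log2 fold change of 5.96 (adjusted p = 0.000186 by edgeR). Cyp2a4 ran from 0.136 to 1.02 CPM in PF livers and from 54.8 to 3010 CPM in AF livers. The fitted log2 difference of Cyp2a4 was 10.97, and it was 10.25 when AF replicate 5 was left out and 11.59 when PF replicate 4 was. Cyp2b13 ran from 0 to 0.292 CPM in PF livers and from 12.7 to 183 CPM in AF livers. For Cyp2b13 it was 8.93, and 8.19 when AF replicate 7 was left out and 9.79 when PF replicate 3 was. Sult2a2 had no count in any PF liver and 4.50 ± 4.64 CPM (SD, n = 7) in AF livers, at least 33.9-fold higher against a floor of 3 counts per library (adjusted p = 0.0128 by edgeR), and limma-voom did not call it (adjusted p = 0.0788). Without AF replicate 1, 3, 4, 5 or 7 it fell short of the filter on low counts and was not tested. Cyp2a4, Cyp2b9, Cyp2b13, Serpina1e, Hsd3b5 and Sult2a2 have close relatives in their gene families, so their counts may be shared with these.

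**Figure D5:**
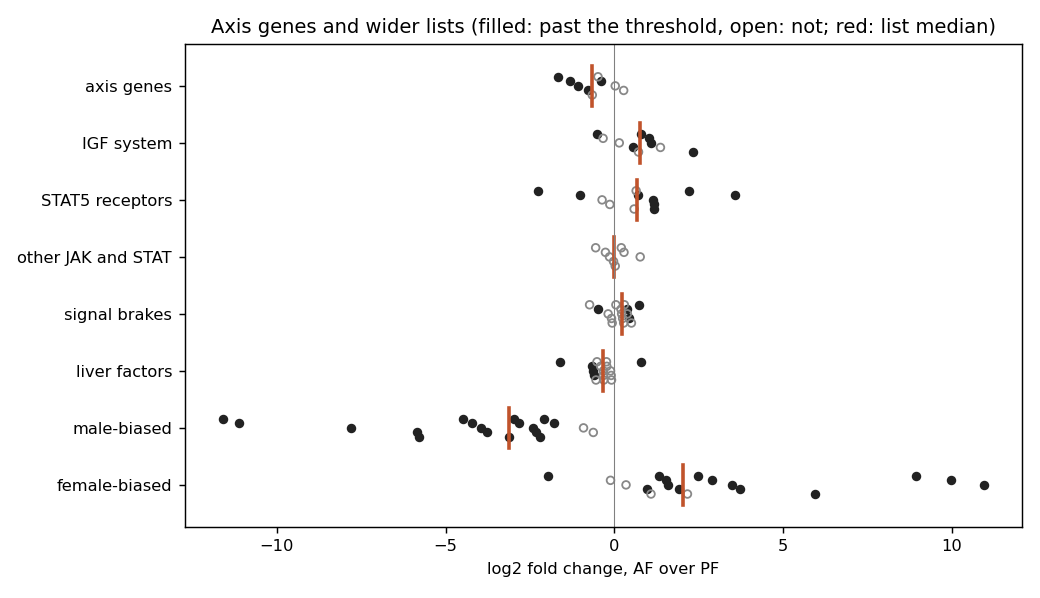
Each point is 1 gene, with its log2 fold change of AF over PF livers on the horizontal axis and its list on the vertical axis, filled where edgeR's test was past the threshold and open where not, and the red bar is the median of the tested genes of a list, which the filter on low counts tilts upwards in the receptor and female-biased lists. The axis genes lie between -1.67 and 0.28. Of the male-biased genes, 6 reached this filter through PF livers only. The male-biased (median -3.11) and female-biased genes were chosen with the largest changes known, so sizes cannot be compared between lists, and fitted values of genes near 0 counts in a group depend on the prior count.

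The genes whose pattern over the 12 livers was most like that of Igf1 were Pdhx, Epas1, Gstz1, Mcur1 and Dleu2. Likeness was the root mean square difference in log2 level after each gene's PF mean was subtracted, over 8348 genes of sufficient level, and it was 0.120 for Pdhx, 0.132 for Epas1, 0.139 for Gstz1, 0.141 for Mcur1 and 0.151 for Dleu2. Pdhx encodes a subunit of the pyruvate dehydrogenase complex, Epas1 the hypoxia-inducible factor HIF2A and Gstz1 an enzyme of tyrosine breakdown. Between 1 (without AF replicate 5) and 5 of these genes were among the closest 5 when a liver was left out, so the set leans on single livers. Since this measure fixes their shift near that of Igf1, their lower level in AF livers under TMM (-0.79 to -0.70) and their values on the scale of hepatocyte markers (-0.17 to -0.05, not past the threshold) follow from how they were chosen. The closest axis gene was Stat5b, at 0.441 and rank 1427.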

How the data were processed

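Liver RNA of 5 PF and 7 AF mice was sequenced after mRNA enrichment, and the authors deposited a table of read counts on Ensembl genes, without normalization, with 12 columns of libraries. The submitters' processing notes name FastQC 0.10.1, TopHat2 2.0.13 and HTSeq 0.10.0, and the reads were aligned to mm10. The strand setting of the counting and its annotation are not given in the sources used here. GENCODE M21, on the same assembly, gave symbols to 54165 of the 54232 gene IDs. The members and all gene lists were chosen with earlier results of these data known.

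In R 4.3.3, counts were filtered with filterByExpr, scaled with TMM and tested with edgeR 4.0.16 (quasi-likelihood test, AF against PF, no covariates, Benjamini-Hochberg adjustment over 14168 genes, threshold 0.05), in place of the study's Cuffdiff2, which needs reads. Standard errors were derived from the F statistic. Exact two-sided permutation tests of log2(CPM + 0.1) ran over all 792 splits, with a smallest p of 0.00126. Alternatives used DESeq2 1.42.0, limma 3.58.1 (voom), other scalings and filters, thinning, a GC and length offset, a replicate block and leaving out each library. AF replicates 6 and 7 share no number with a PF liver, so the replicate block compared replicates 1 to 5. On library totals of 24129900 to 30578639, a count of 0 allows up to 3 counts, and intervals cover counting error only. Libraries within a group differed by at least 19.4 times the counting noise, so none was a repeat. The steps were tested on simulated counts.

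The text names all 10 members, 8 preset genes (Igfbp1, Igfbp2, Igfbp3, Igf1r, Prlr, Onecut1, Stat3 and Socs3), up to 4 genes with the largest changes past the threshold in each of 7 lists, and the 5 genes most like Igf1. Igf2r, Insr, Igfbp4, Igfbp5, Erbb4, Il2ra, Il3ra, Nr3c1, Jak1, Hamp2, Cyp3a44, Cyp2c40, Hao2, Acot3, Krt7, Krt19, Alas2, S100a8 and S100a9 were named after their values were seen. The hepatocyte list holds 10 genes, of which 9 were found by symbol.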

Additional observations from a re-analysis of the deposited data

How the results depend on the processing

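Of all genes, 9801 were called on the scale of hepatocyte markers (9334 higher, 467 lower) and 7391 on library totals (6452 higher, 939 lower), against 5635 (3116 and 2519) under TMM. Axis genes called lower were 2 on the hepatocyte scale, and 4 to 5 with a library left out. Axis genes called higher were 1 with upper-quartile scaling, library totals, DESeq2, limma-voom with sample weights and both other filters, 2 on the hepatocyte scale and 0 to 1 with a library left out, and each of these was Stat5a, Cux2 or Jak2. With a library left out, Jak2 ran from -0.05 (without PF replicate 1) to 0.09 and was -0.03 and -0.0 without AF replicate 2 or 5, Stat5a ran from 0.22 to 0.32, Stat5b from -0.48 to -0.32, and the Cux2 difference from 1.08 to 1.71. On the hepatocyte scale Jak2 was at 0.74, Stat5a at 0.93, Stat5b at 0.30, Igf1 at -0.17, Socs2 at 0.16, Cish at 0.23, Bcl6 at -0.64, Prlr at 0.25, Stat3 at 0.07, Socs4 at 0.23, Onecut2 at 0.05, Esr1 at 0.06, Insr at 0.18, Erbb4 at -0.23, Igf1r at 1.51 and Nr3c1 at 0.08. Stat5a was at 0.33 and Stat5b at -0.32 with upper-quartile scaling, and at 0.62 and -0.02 on library totals. Sample weights gave 0.28 for Stat5a and -0.88 for Bcl6, and the GC and length offset -0.09 for Stat5a. Igfbp1 was at -0.54 with limma-voom, -0.58 with its weights, -0.34 with the replicate block, and -0.85 to 0.32 with a library left out. Of the wider lists, receptors went from 8 calls to 5 with every gene of at least 1 count and to 4 to 8 with a library left out, and female-biased genes from 14 to 8 with limma-voom. JAK and STAT genes went from 0 to 1 with RLE, upper-quartile scaling, DESeq2, limma-voom and thinning, 2 with sample weights and with the replicate block, 3 on library totals, 4 with the GC offset, 5 on the hepatocyte scale, and 0 to 1 with a library left out. Signal-limiting genes went from 4 to 8 with upper-quartile scaling, 11 on library totals, 14 on the hepatocyte scale, 9 with sample weights, 7 with the GC offset, and 2 to 7 with a library left out. Liver factors went from 5 to 2 on library totals, 8 with sample weights, 12 with the replicate block, 11 with the GC offset, and 5 to 8 with a library left out. Genes most like Igf1 that stayed in the closest 5 were 1 to 5. The correlation of deviations of PF and AF livers with the same replicate number ran from -0.08 to 0.11, and 1 of 5 PF livers correlated best with its own number. This showed no pairing of the mice but cannot exclude it, since pairs need not share a pattern over all genes. The replicate block, which sets aside AF replicates 6 and 7, gave 6335 calls and left 5 axis genes lower, and is no test of pairing. The causes of these shifts were not tested. Depth limits Cux2 alone among the axis genes.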
